A study of Rattus norvegicus with 12 samples.

Results

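The 7 genes studied here belong to the pathway of MHC class I antigen presentation and were followed in rat brain after bile duct ligation and after delivery of a viral vector. They were taken by gene symbol, and all 7 of 7 had a row among the 17337 rows of the count table: B2m, RT1-CE14, Tap1, Tap2, Tapbp, Psmb8 and Psmb9. All 7 passed the filter on low counts, which kept 12850 rows. The 12 libraries came from brain of male Sprague-Dawley rats at postnatal day 60, with 3 libraries in each of 4 groups. The sham group was not ligated. The BDL group had its bile duct tied off for 4 weeks, an operation that leads to cirrhosis and to hepatic encephalopathy. The AAV-GFP and AAV-VEGFC groups had the same 4-week ligation and also received an adeno-associated virus (AAV) in 20 µl through the cisterna magna, a fluid space below the cerebellum. One vector carried GFP, a fluorescent reporter, and the other carried VEGFC, a growth factor for lymphatic vessels. Ligation is therefore common to 3 groups. Vector, injection and transgene cannot be told apart in AAV-GFP against BDL, since the labels name no injection for the sham and BDL rats. Neither the promoter that drives the transgene nor the time of injection is stated in the labels.

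MHC class I molecules show peptides from inside a cell to CD8 T cells. The proteasome cuts proteins into peptides, the transporter TAP carries the peptides into the endoplasmic reticulum, tapasin holds TAP beside an empty class I molecule, and the loaded molecule of heavy chain and beta-2-microglobulin goes to the cell surface. In healthy brain, neurons carry little class I, microglia and endothelium carry more, and interferons raise most genes of the pathway.

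RefSeq annotation of the GRCr8 rat assembly places B2m on chromosome 3 and the other 6 genes on chromosome 20. Tap2, Psmb8, Tap1 and Psmb9 are consecutive genes there. Tap1 (minus strand) and Psmb9 (plus strand) point away from each other, with 456 bases between their starts. RT1-CE14 is annotated as a non-coding transcript (misc_RNA) and the other 6 genes as protein coding. The promoter table held 6 of the 7 genes, without RT1-CE14, each as a window from 250 bases before the start to 50 after it. Stretches of 5 of these windows are shown because they hold the sequence elements through which interferon and NF-kappaB are known to act on class I genes. Each is written 5′ to 3′ on the gene's own strand, with motif matches in capitals.
B2m, chr3:129549165-129549217, plus strand: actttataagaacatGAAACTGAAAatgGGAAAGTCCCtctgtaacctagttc
Tap1, chr20:4668574-4668679, minus strand: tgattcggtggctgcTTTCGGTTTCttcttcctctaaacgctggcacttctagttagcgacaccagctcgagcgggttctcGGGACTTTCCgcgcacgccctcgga
Tap2, chr20:4652313-4652352, minus strand: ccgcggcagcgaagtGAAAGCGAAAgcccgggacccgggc
Tapbp, chr20:4967881-4967910, minus strand: tttgaggGAAAATGAAAGTGAAAggaaaca
Psmb8, chr20:4657024-4657050, minus strand: tcttggtgctgtggcTTTCGCTTTCac

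The interferon-stimulated response element was searched on both strands as GAAA, then any 2 bases, then GAAA. It was found in 5 of the 6 windows and in 3.92% of the 33469 promoter windows of the same length in the table. In B2m it lies at -150 to -141 from the start, in Tap1 at -121 to -112 and in Tap2 at -41 to -32. The Psmb8 match spans the start, at -4 to 6. Tapbp holds a pair of overlapping matches, at -26 to -17 and at -20 to -11. The annotated Tapbp gene begins upstream of the start used for its window, so a shorter stretch is shown for it. The kappaB element, searched on both strands as GGGA, then any 1 base, then TTTCC, was found in B2m, Tap1 and Tapbp, which is 3 of 6 windows, and in 0.362% of all windows. Its Tapbp match, at -61 to -52, lies outside the stretch shown. The gamma-activated sequence, searched as TTC, then any 3 bases, then GAA, was found in 1 of 6 windows, that of Psmb8, and in 8.87% of all windows. The Psmb9 window held none of the 3. The windows of neighbouring Tap1 and Psmb9 overlap by 44 bases. A match is a description of the letters and was not tested for activity here.

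The libraries held 40296297 to 51669067 counted reads. Levels are given as CPM, the reads of a gene per 1e6 reads of the library after scaling. CPM takes no account of gene length, so levels are compared between libraries and not between genes. In each test below, edgeR's quasi-likelihood test gives the log2 fold change with its standard error (SE), and a gene is called at a Benjamini-Hochberg adjusted p under 0.05 over all 12850 genes. Library AAV-GFP 1 stood apart by its class II genes, whose summed level was 358 CPM against 7.35 to 53.0 in the other 11 libraries. Library AAV-VEGFC 1 stood apart by its proteasome genes, with a summed core level of 2552 CPM against 1230 to 1586 elsewhere. In AAV-VEGFC 1 neuron markers (7 genes) summed to 4790 CPM against 6048 to 7499 elsewhere. Oligodendrocyte markers (6 genes) summed to 18780 CPM there against 11094 to 14655 elsewhere. Hypothalamus and pituitary markers (7 genes) summed to 86.4 CPM in AAV-GFP 1 and 58.1 in AAV-VEGFC 3, against 2.48 to 13.4 elsewhere. Library sham 2 stood apart by its choroid plexus marker Ttr, at 245 CPM. Whether the libraries held the same tissue parts was not tested. For the 7 genes, many results that rest on sham 2, AAV-GFP 1 or AAV-VEGFC 1 are given with and without them. Where a sign turned with 1 library left out, the range is given at the end. So are the list medians in AAV-GFP against BDL. Tests of single genes in the lists use all 12 libraries. Ribosomal Rn18s took 0.137% to 0.306% of the reads in libraries of the sham and BDL groups and 0.43% to 1.16% in the vector libraries. The brain is labelled as middle brain. Its 7 midbrain monoamine neuron markers summed to 6.10 to 11.1 CPM, while the cortical and hippocampal transporter gene Slc17a7 stood at 1249 to 2029 CPM.

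None of the 7 genes was called in any of the 4 comparisons by edgeR over the 12 libraries. B2m encodes the class I light chain, and RT1-CE14 is a row of the class I region annotated as non-coding. Both were higher in all 3 AAV-GFP libraries than in all 3 BDL libraries, as were 18.2% of all genes. RT1-CE14 was lower in all 3 AAV-VEGFC libraries than in all 3 AAV-GFP libraries, as were 2.77% of all genes. B2m, Tap1, Tapbp, Psmb8 and Psmb9 had their 2 highest values in AAV-GFP 1 and AAV-VEGFC 1. For Tap1, Tapbp, Psmb8 and Psmb9 the other AAV-GFP libraries lay within or below the BDL range, and for Tapbp, Psmb8 and Psmb9 the sign of AAV-GFP against BDL turned without AAV-GFP 1.

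B2m encodes beta-2-microglobulin, the light chain shared by all class I molecules, and had the most reads of the 7, 11240 to 23507 per library. It measured 266, 253 and 307 CPM in sham 1 to 3, and 244, 291 and 287 in BDL 1 to 3. It measured 490, 365 and 371 CPM in AAV-GFP 1 to 3, and 507, 273 and 315 in AAV-VEGFC 1 to 3. The AAV-GFP libraries all stood above every sham and BDL library, whereas AAV-VEGFC 2 lay within the BDL range. The sham mean of 275 ± 28.0 CPM (SD, n = 3) and the BDL mean of 274 ± 26.4 gave a log2 fold change of -0.01 (SE 0.20, adjusted p = 1). The AAV-GFP mean of 409 ± 70.9 CPM was 1.49-fold the BDL mean, a log2 fold change of 0.58 (SE 0.20, 95% interval 0.13 to 1.03, adjusted p = 0.132). This difference was called by DESeq2 (adjusted p = 0.0478, beside 11.6% of all genes called). Limma voom with quality weights also called it (0.46, adjusted p = 0.00351, beside 36.5%). So did edgeR without the 3 libraries that stand apart, a choice made after seeing the data (0.42, adjusted p = 0.0107, beside 28.3%). With the AAV-GFP and BDL libraries fitted alone, edgeR called it too (adjusted p = 0.0303, beside 16.1%). Of 14 alternatives, these 4 called the difference and the other 10 did not. The AAV-VEGFC mean of 365 ± 125 CPM gave 0.41 against BDL (SE 0.20, 95% interval -0.04 to 0.86, adjusted p = 0.204). Without AAV-VEGFC 1 that estimate was 0.10. AAV-VEGFC against AAV-GFP gave -0.16 (SE 0.20, 95% interval -0.61 to 0.28, adjusted p = 0.957). By edgeR this was -0.47 without AAV-VEGFC 1 (adjusted p = 0.138) and -0.32 without the 3 libraries that stand apart (adjusted p = 0.0915).

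**Figure D1:**
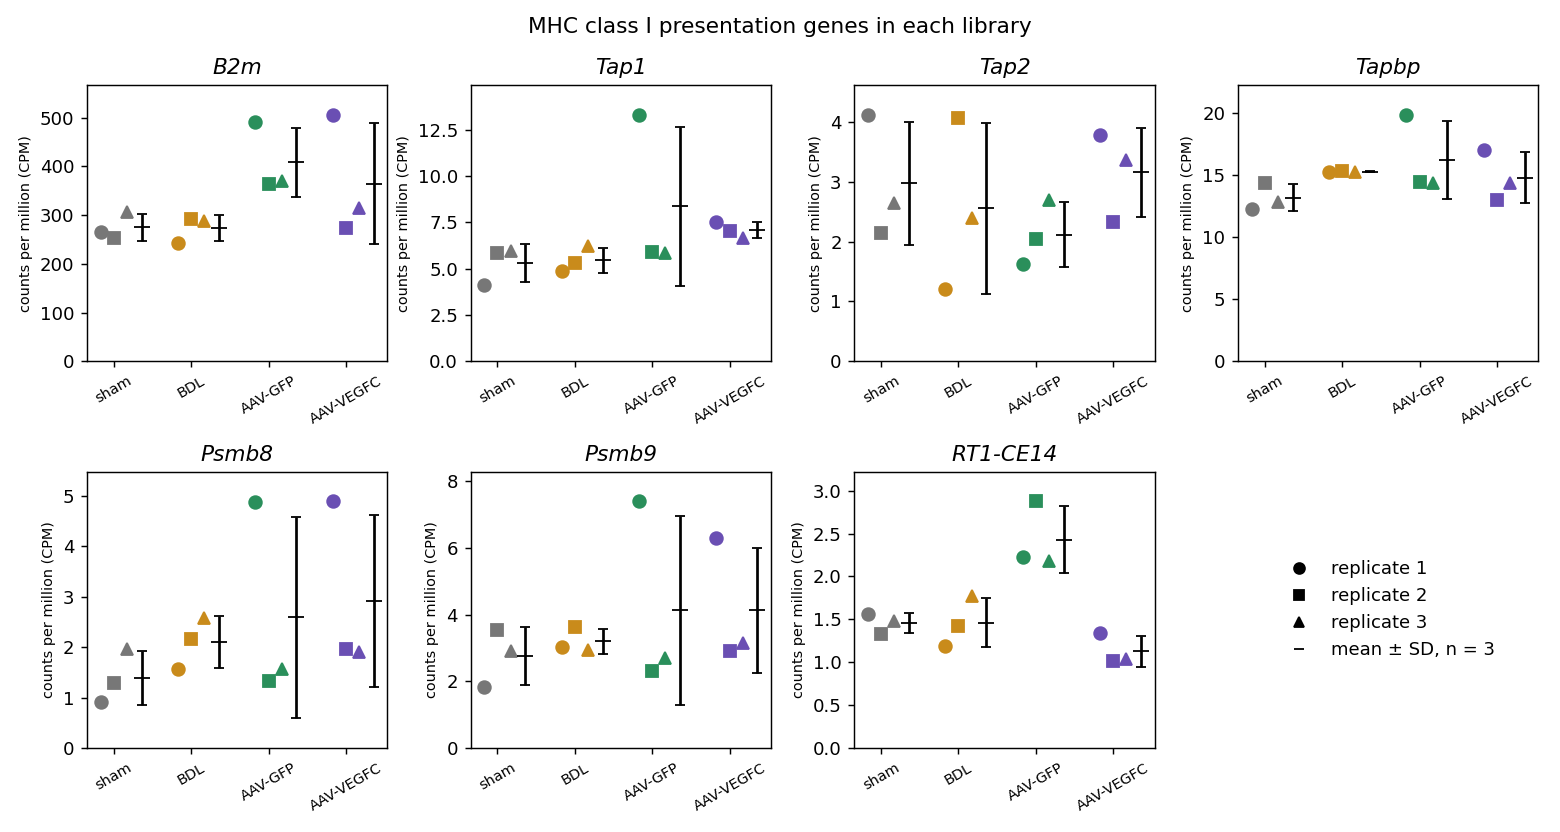
Level of each of the 7 class I genes in CPM (vertical axes start at 0) in the 12 libraries; each point is 1 library, its shape gives the replicate number, and bars show the mean and SD of 3 libraries per group. For B2m, Tap1, Tapbp, Psmb8 and Psmb9 the circles of AAV-GFP and AAV-VEGFC are the 2 highest points, while RT1-CE14 is highest in the 3 AAV-GFP libraries, at 2.18 to 2.88 CPM.

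RT1-CE14 is a row of the rat class I heavy chain region, with 47 to 130 reads per library. It measured 1.56, 1.32 and 1.48 CPM in sham 1 to 3, and 1.19, 1.42 and 1.77 in BDL 1 to 3. In AAV-GFP 1 to 3 it measured 2.23, 2.88 and 2.18 CPM, and in AAV-VEGFC 1 to 3 it measured 1.34, 1.02 and 1.03. The AAV-GFP libraries were the highest 3 of the 12, and AAV-GFP 1 was not the highest of them. AAV-GFP stood 1.66-fold above BDL, at 2.43 ± 0.389 against 1.46 ± 0.290 CPM (SD, n = 3 each). The log2 fold change was 0.73 (SE 0.23, 95% interval 0.23 to 1.23, adjusted p = 0.0885). AAV-VEGFC, at 1.13 ± 0.180 CPM, stood below AAV-GFP with a log2 fold change of -1.11 (SE 0.23, 95% interval -1.61 to -0.60). Its unadjusted p of 0.000534 became an adjusted p of 0.857, in a comparison where 1 of 12850 genes was called. DESeq2 called both differences (adjusted p = 0.0247 and 0.0127), as did edgeR without the 3 libraries that stand apart (0.78, adjusted p = 0.0429, and -1.29, adjusted p = 0.0252). Limma voom called the first only (adjusted p = 0.0122). Of 14 alternatives, 3 called the first difference and 2 called the second. The shares of all genes called in these settings are given below. AAV-VEGFC against BDL gave -0.37 (SE 0.23, adjusted p = 0.309), and BDL against sham gave 0.01 (SE 0.23, adjusted p = 1). RT1 class I genes are known as near-identical copies, and how reads matching several copies were counted is not stated, so the level of a single RT1 row is uncertain. Sprague-Dawley rats are outbred, and the RT1 alleles of each rat were not determined here.

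Tap1 and Tap2 encode the 2 chains of the peptide transporter, which works only as the pair. Tap1 measured 4.12, 5.87 and 5.95 CPM in sham 1 to 3, and 4.88, 5.31 and 6.21 in BDL 1 to 3. It measured 13.3, 5.91 and 5.86 CPM in AAV-GFP 1 to 3, and 7.52, 7.06 and 6.68 in AAV-VEGFC 1 to 3. Only AAV-GFP 1 of the AAV-GFP libraries exceeded the BDL range, whereas the 3 AAV-VEGFC libraries all lay above every sham and BDL library. Of all genes, 14.6% had every AAV-VEGFC library above every BDL library. The log2 fold change of AAV-VEGFC against BDL was 0.37 (SE 0.29, 95% interval -0.26 to 1.01, adjusted p = 0.423). AAV-GFP against BDL gave 0.61 (SE 0.29, 95% interval -0.02 to 1.25, adjusted p = 0.258), and 0.10 without AAV-GFP 1. AAV-VEGFC against AAV-GFP was -0.24 (SE 0.29, adjusted p = 0.956) and turned to 0.27 without AAV-GFP 1.

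Tap2 measured 4.12, 2.14 and 2.65 CPM in sham 1 to 3, and 1.21, 4.06 and 2.39 in BDL 1 to 3. In AAV-GFP 1 to 3 it measured 1.63, 2.04 and 2.69 CPM, and in AAV-VEGFC 1 to 3 it measured 3.78, 2.33 and 3.36. Its highest libraries were sham 1 and BDL 2, and AAV-GFP 1, the highest library for Tap1, was the second lowest for Tap2. The groups overlapped in all 4 comparisons. The log2 fold changes ran from -0.27 (SE 0.41, AAV-GFP against BDL, adjusted p = 0.753) to 0.57 (SE 0.41, AAV-VEGFC against AAV-GFP, adjusted p = 0.948). BDL against sham gave -0.22 (SE 0.40, adjusted p = 1), which turned to 0.12 without BDL 1. Over the 12 libraries, Tap1 and Tap2 had a Pearson correlation of log2 CPM of -0.28, given as a description of libraries that share sequencing depth and group.

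Tapbp encodes tapasin, the chaperone that links TAP to the class I heavy chain. It measured 12.2, 14.4 and 12.8 CPM in sham 1 to 3, and 15.2, 15.3 and 15.2 in BDL 1 to 3. In AAV-GFP 1 to 3 it measured 19.8, 14.4 and 14.4 CPM, and in AAV-VEGFC 1 to 3 it measured 17.03, 12.95 and 14.3. The BDL libraries all stood above the sham libraries, with means of 15.3 ± 0.0445 and 13.1 ± 1.10 CPM (SD, n = 3 each). The log2 fold change was 0.21 (SE 0.14, 95% interval -0.09 to 0.52, adjusted p = 0.987). Tapbp was the only one of the 7 genes whose BDL and sham libraries did not overlap. Of all genes, 12.6% had every BDL library above every sham library, a share near 1 of 7. AAV-GFP against BDL gave 0.09 (SE 0.14, adjusted p = 0.77), which turned to -0.09 without AAV-GFP 1. AAV-VEGFC gave -0.05 against BDL (SE 0.14, adjusted p = 0.859) and -0.13 against AAV-GFP (SE 0.14, adjusted p = 0.948).

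Psmb8 and Psmb9 encode catalytic subunits that replace standard ones in the immunoproteasome, the form that favours peptides fit for class I. Psmb8 measured 0.919, 1.28 and 1.96 CPM in sham 1 to 3, and 1.56, 2.17 and 2.57 in BDL 1 to 3. It measured 4.88, 1.33 and 1.56 CPM in AAV-GFP 1 to 3, and 4.89, 1.96 and 1.91 in AAV-VEGFC 1 to 3. One library in each vector group stood at about the same high level, and the other 4 vector libraries lay within the span of the sham and BDL libraries. AAV-GFP 1 was 3.38-fold the mean of its 2 group neighbours and AAV-VEGFC 1 was 2.53-fold.

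Psmb9 measured 1.82, 3.55 and 2.92 CPM in sham 1 to 3, and 3.03, 3.63 and 2.93 in BDL 1 to 3. In AAV-GFP 1 to 3 it measured 7.41, 2.32 and 2.69 CPM, and in AAV-VEGFC 1 to 3 it measured 6.31, 2.91 and 3.16. The same 2 libraries were high, 2.95-fold and 2.08-fold their group neighbours. Against BDL, AAV-GFP gave log2 fold changes of 0.30 for Psmb8 (SE 0.53, 95% interval -0.86 to 1.47, adjusted p = 0.793) and 0.37 for Psmb9 (SE 0.45, 95% interval -0.61 to 1.35, adjusted p = 0.682). Both turned negative without AAV-GFP 1, to -0.54 and -0.36. AAV-VEGFC against BDL gave 0.47 for Psmb8 (SE 0.53, adjusted p = 0.603) and 0.36 for Psmb9 (SE 0.45, adjusted p = 0.634), and without AAV-VEGFC 1 these were -0.12 and -0.07. BDL against sham gave 0.60 for Psmb8 (SE 0.54, 95% interval -0.59 to 1.79, adjusted p = 1) and 0.21 for Psmb9 (SE 0.45, adjusted p = 1). AAV-VEGFC against AAV-GFP gave 0.17 for Psmb8 (SE 0.53, adjusted p = 0.982) and -0.01 for Psmb9 (SE 0.44, adjusted p = 0.998). Without AAV-GFP 1 these were 0.9998 and 0.71, and without AAV-VEGFC 1 they were -0.42 and -0.45. Across the 12 libraries the Pearson correlation of the pair's log2 CPM was 0.90, and over the 10 libraries without AAV-GFP 1 and AAV-VEGFC 1 it was 0.64.

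**Figure D2:**
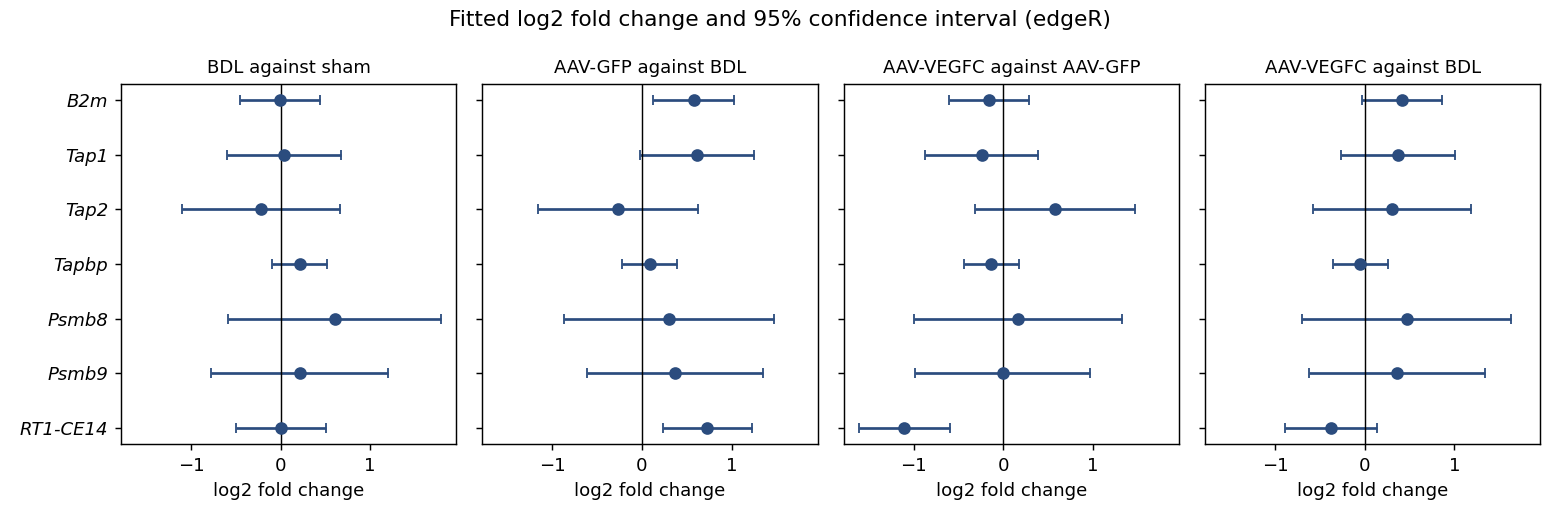
Log2 fold change of each of the 7 genes in the 4 comparisons (horizontal axis), with 95% intervals from edgeR's quasi-likelihood fit over 12 libraries. The intervals of B2m and RT1-CE14 in AAV-GFP against BDL and of RT1-CE14 in AAV-VEGFC against AAV-GFP lie off 0, and no gene was called after adjustment.

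Counted together, 0 of 7 genes were called by edgeR in BDL against sham, where 0.109% of all tested genes were called. At an unadjusted p under 0.05 the count was 0 of 7, against 5.9% of all genes, and DESeq2 (0.84% of all genes), limma voom (2.7%) and edgeR without the 3 libraries that stand apart (1.62%) also called 0. In AAV-GFP against BDL, 0 of 7 were called against 6.19% of all genes, and 2 of 7 had an unadjusted p under 0.05 against 20.7%. DESeq2 called B2m and RT1-CE14 there (11.6% of all genes), as did limma voom (36.5%) and edgeR without the 3 libraries that stand apart (28.3%). EdgeR on the AAV-GFP and BDL libraries alone called B2m, beside 16.1% of all genes. In AAV-VEGFC against AAV-GFP, 0 of 7 were called against 0.00778% of all genes, and RT1-CE14 alone had an unadjusted p under 0.05, against 4.37%. DESeq2 called it (0.0778% of all genes), limma voom did not (0 of 7, against 0.00778%), and edgeR without the 3 libraries did (9.26%). In AAV-VEGFC against BDL, 0 of 7 were called against 9.93% of all genes, 0 of 7 had an unadjusted p under 0.05 against 29.2%, and DESeq2 (18.3% of all genes), limma voom (19.4%) and edgeR without the 3 libraries (24.2%) called 0.

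Genes whose groups did not overlap numbered 1 of 7 higher in BDL than in sham (12.6% of all genes) and 2 of 7 higher in AAV-GFP than in BDL (18.2%). They numbered 1 of 7 lower in AAV-VEGFC than in AAV-GFP (2.77%) and 1 of 7 higher in AAV-VEGFC than in BDL (14.6%). The median log2 fold change of the 7 genes was 0.04 in BDL against sham and 0.37 in AAV-GFP against BDL, beside medians of 0.01 and 0.01 over all genes. It was -0.13 in AAV-VEGFC against AAV-GFP and 0.36 in AAV-VEGFC against BDL, beside 0.01 and 0.00 over all genes. These comparisons share groups: BDL enters 3 of them, and AAV-GFP and AAV-VEGFC enter 2 each.

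The other class I heavy chain rows were read beside RT1-CE14. The table held 39 such rows including RT1-CE14, of which 7 had no read in any library, 21 had reads in every library and 23 were tested. Their summed level was 96.6 to 106 CPM in sham and 81.1 to 103 in BDL. It was 190, 114 and 113 CPM in AAV-GFP 1 to 3 and 143, 101 and 110 in AAV-VEGFC 1 to 3, so the same 2 libraries were again highest. Of the 22 other tested rows, 2 rose and 1 fell in AAV-GFP against BDL, beside 6.19% of all genes called, with a median log2 fold change of 0.62. Without the 3 libraries that stand apart, 3 of 23 rose and 2 fell, beside 28.3% of all genes called, and the median was 0.27. RT1-CE5 rose from 5.45 ± 1.53 to 9.76 ± 2.61 CPM (0.84, SE 0.22, adjusted p = 0.0491) and RT1-T24-4 from 7.17 ± 1.24 to 11.9 ± 0.394 CPM (0.73, SE 0.15, adjusted p = 0.0134). RT1-M1-2 fell from 2.12 ± 0.335 CPM in BDL to 0.481 ± 0.0637 in AAV-GFP (-2.13, adjusted p = 0.00626) and to 0.487 ± 0.215 in AAV-VEGFC (-2.13, adjusted p = 0.00496). It was the only other heavy chain row called in AAV-VEGFC against BDL. In BDL against sham and in AAV-VEGFC against AAV-GFP, edgeR, DESeq2 and limma voom called 0 of 22. Each of these 2 comparisons had 1 row at an unadjusted p under 0.05, beside 5.9% and 4.37% of all genes. RT1-CE16 varied between libraries within groups. It had 8, 9 and 0 reads in sham 1 to 3, 290, 204 and 12 in BDL 1 to 3, 422, 0 and 106 in AAV-GFP 1 to 3, and 213, 254 and 263 in AAV-VEGFC 1 to 3. Its log2 fold change in BDL against sham was 4.91 (SE 1.60, adjusted p = 0.589).

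**Figure D3:**
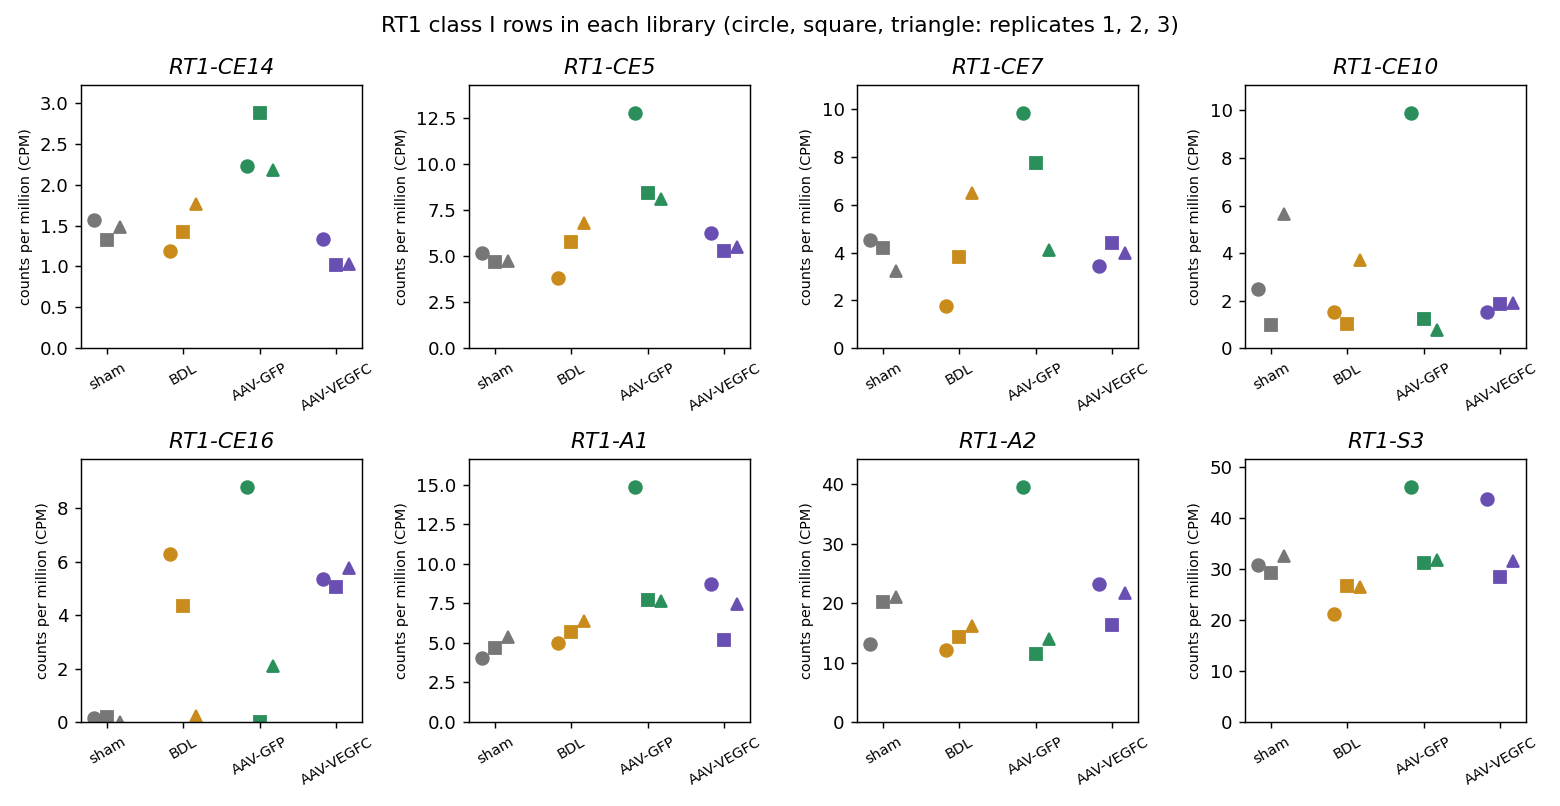
Level of RT1-CE14 and 7 other class I heavy chain rows, chosen after their values were seen, in CPM (vertical axes start at 0); each point is 1 library and its shape gives the replicate number. RT1-CE14 and RT1-CE5 are highest in the 3 AAV-GFP libraries, and RT1-CE16 is at or near 0 in 5 libraries of 3 groups.

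Among 27 tested of 30 listed further genes of the class I pathway, which cover chaperones, proteasome activators, trimming enzymes and regulators, 0 were called in BDL against sham and 1 in AAV-GFP against BDL. That gene was Calr, which encodes the chaperone calreticulin of the peptide-loading complex, and it rose from 581 ± 11.95 to 693 ± 13.1 CPM (0.25, SE 0.06, adjusted p = 0.0418). The sham mean of Calr was 677 ± 6.11 CPM. Pdia3, the disulfide isomerase of the same complex, stood at 339 against 294 CPM (0.20, SE 0.06, adjusted p = 0.0884). In AAV-VEGFC against BDL, Rfxap rose (0.69, SE 0.19, adjusted p = 0.045) and Rfx5 fell (-0.46, SE 0.10, adjusted p = 0.0155). Both encode parts of the RFX complex, which binds class I and class II promoters. In AAV-VEGFC against AAV-GFP edgeR called 0 of 27, with 3 at an unadjusted p under 0.05 (4.37% of all genes) and 0 by DESeq2 or limma voom. The 0 in BDL against sham stood beside 4 at an unadjusted p under 0.05 (5.9% of all genes), 3 called by DESeq2 (0.84%) and 3 by limma voom (2.7%). The 3 genes with the smallest p there, Calr among them (-0.22, SE 0.06), all had log2 fold changes below 0. Without the 3 libraries that stand apart edgeR called 2 of 27 lower in BDL (1.62% of all genes). Over all genes 6.19% were called in AAV-GFP against BDL and 9.93% in AAV-VEGFC against BDL. The median of the 27 was 0.20 in AAV-GFP against BDL. Without the 3 libraries that stand apart it was 0.056, and 7 rose and 1 fell, beside 28.3% of all genes called, a share near that of the list.

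The 14 core genes of the standard proteasome were read beside Psmb8 and Psmb9. EdgeR called 0 of 14 in every comparison, with all 14 log2 fold changes above 0 in AAV-GFP against BDL (median 0.22) and in AAV-VEGFC against BDL (median 0.45). At an unadjusted p under 0.05 the counts in these 2 comparisons were 0 of 14 (20.7% of all genes) and 10 of 14 (29.2%). DESeq2 called 0 (11.6%) and 6 (18.3%), and limma voom called 12 (36.5%) and 2 (19.4%). In BDL against sham and in AAV-VEGFC against AAV-GFP these counts were all 0. In AAV-GFP 1 their summed level of 1488 CPM was below those of AAV-GFP 2 and 3, at 1552 and 1586, whereas Psmb8 and Psmb9 were highest in AAV-GFP 1 within that group. In AAV-VEGFC 1 the core genes and the immunoproteasome genes were high together. Without the 3 libraries that stand apart, 12 of 14 core genes rose in AAV-GFP against BDL (median 0.24), where 28.3% of all genes were called. In AAV-VEGFC against BDL, 5 of 14 then rose and the median was 0.14, where 24.2% of all genes were called. In AAV-VEGFC against AAV-GFP the median turned from 0.24 to -0.097 without them.

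Of 36 tested of 44 listed interferon-induced genes, 3 rose in AAV-GFP against BDL, beside 6.19% of all genes called: Ifit2 (0.84, SE 0.11, adjusted p = 0.00122), Ifit3 (2.31, SE 0.34, adjusted p = 0.0023) and Bst2 (1.03, SE 0.27, adjusted p = 0.0481). Ifit2 and Ifit3 encode antiviral proteins that act on foreign RNA, and Bst2 encodes tetherin, which holds budding virus at the cell surface. Ifit2 and Ifit3 also rose in AAV-VEGFC against BDL, which is 2 of 36 beside 9.93% of all genes called, and edgeR called 0 of 36 in the other 2 comparisons. In BDL against sham 1 had an unadjusted p under 0.05 (5.9% of all genes), and DESeq2 called 1 (0.84%) and limma voom 1 (2.7%). In AAV-VEGFC against AAV-GFP 2 had an unadjusted p under 0.05 (4.37%), and DESeq2 and limma voom called 0. The median of the 36 was 0.27 in AAV-GFP against BDL and 0.06 in AAV-VEGFC against BDL. Without the 3 libraries that stand apart the medians were 0.10 and -0.075, with 4 rising and 2 falling (28.3% of all genes called) and 5 rising and 2 falling (24.2%). Ifit3 stood at 6.07 ± 1.75 CPM in AAV-GFP against 1.22 ± 0.593 in BDL, and as the colour map of related genes shows, it was high in all 6 vector libraries.

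The summed level of class II genes, which present peptides from outside the cell to CD4 T cells, was led by library AAV-GFP 1. Of 9 tested of 13 listed, 2 rose in AAV-GFP against BDL, beside 6.19% of all genes called. They were RT1-Bb (3.38, SE 0.60, adjusted p = 0.00683) and RT1-Ba (3.48, SE 0.85, adjusted p = 0.0339). Both were high in all 3 AAV-GFP libraries. RT1-Bb stood at 4.25 to 8.01 CPM there, against at most 1.23 in the other groups, and RT1-Ba at 3.69 to 6.59 against at most 1.66. In that comparison 8 of 9 had an unadjusted p under 0.05 (20.7% of all genes). DESeq2 called 5 (11.6%) and limma voom 4 (36.5%). EdgeR called 0 of 9 in the other comparisons. In AAV-VEGFC against AAV-GFP, 7 had an unadjusted p under 0.05 (4.37% of all genes). DESeq2 called 1 there (0.0778%) and limma voom 0, and each measure gave 0 in the rest. The median of the 9 in AAV-GFP against BDL was 2.83. Without the 3 libraries that stand apart it was 1.63, and 4 of 9 rose, beside 28.3% of all genes called. In AAV-VEGFC against AAV-GFP 1 then fell (9.26% of all genes), and in AAV-VEGFC against BDL 1 rose (24.2%). Cd74, the class II invariant chain, measured 235 CPM in AAV-GFP 1, 25.7 and 22.4 in AAV-GFP 2 and 3, and 14.4, 10.4 and 14.2 in AAV-VEGFC 1 to 3. AAV-VEGFC 1, high for B2m, Psmb8 and Psmb9, was therefore not high for Cd74.

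**Figure D4:**
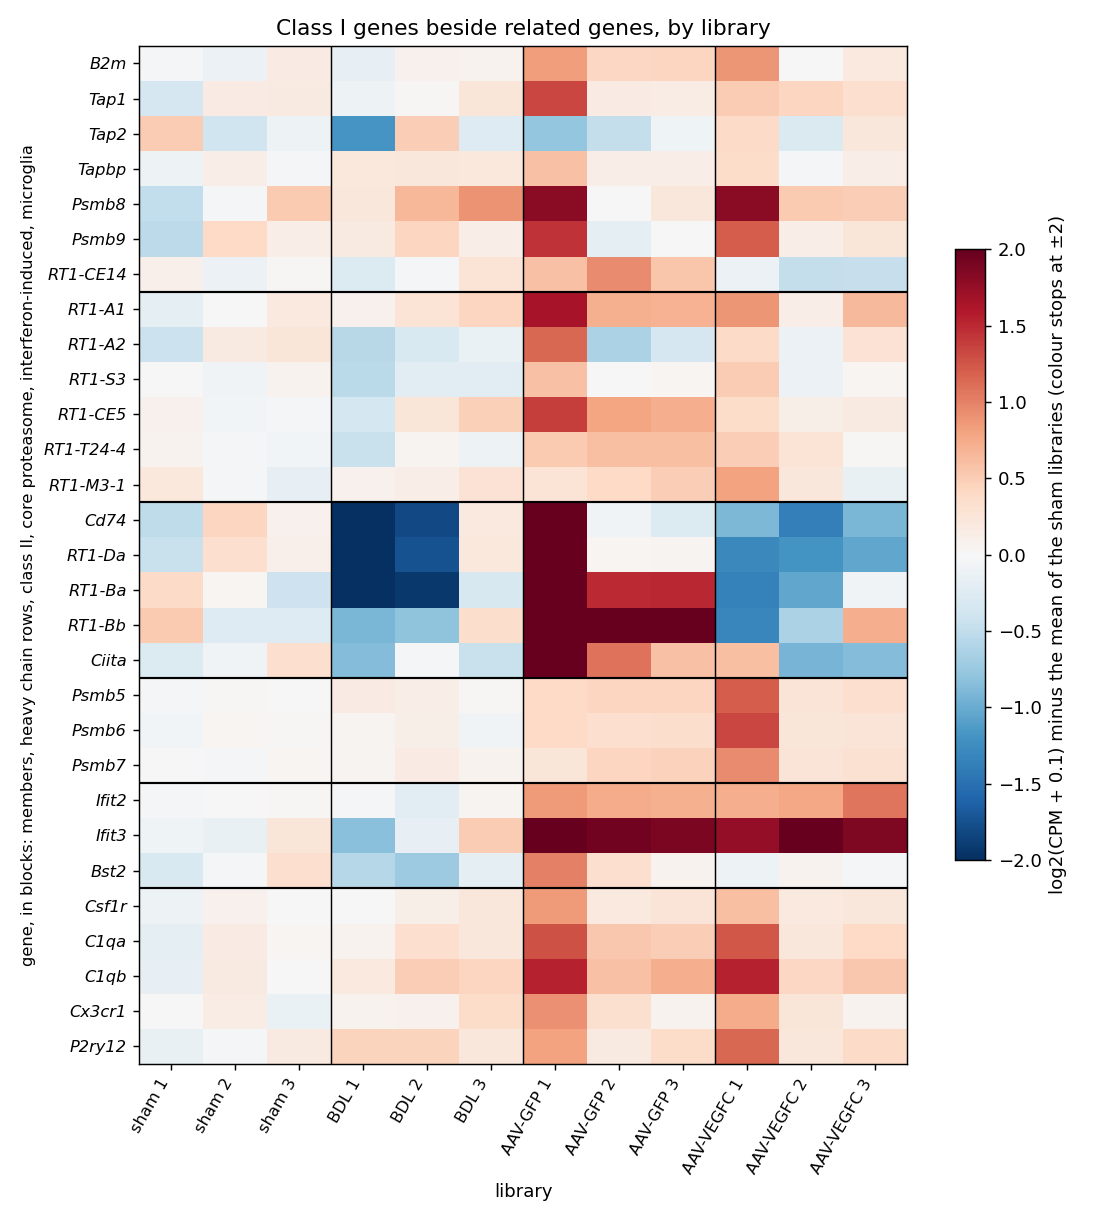
Colour map of log2(CPM + 0.1) in each of 12 libraries minus the mean of the 3 sham libraries, for the 7 class I genes and 22 related genes chosen after their values were seen; colours stop at -2 and 2. AAV-GFP 1 and AAV-VEGFC 1 are dark for Psmb8, less dark for Psmb9, C1qa and C1qb, and paler for Csf1r. Ifit3 is dark in all 6 vector libraries.

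Markers of other cell types were read beside these values, because in bulk tissue more cells of a type and more RNA per cell cannot be told apart. The 12 microglia markers, genes of the brain's resident macrophages, summed to 415 to 477 CPM in sham and 456 to 542 in BDL. They summed to 848, 568 and 566 CPM in AAV-GFP 1 to 3 and to 866, 513 and 558 in AAV-VEGFC 1 to 3, so that the same 2 libraries were the highest. EdgeR called 0 of 12 in every comparison. At an unadjusted p under 0.05 there were 3 in AAV-GFP against BDL (20.7% of all genes) and 2 in AAV-VEGFC against BDL (29.2%). DESeq2 called 0 of the 12, and limma voom called 5, all in AAV-GFP against BDL (36.5% of all genes). Their median log2 fold change was 0.45 in both vector groups against BDL. Without the 3 libraries that stand apart it was 0.24 in AAV-GFP and 0.10 in AAV-VEGFC. EdgeR then called 2 of 12 in AAV-GFP against BDL (28.3% of all genes), 1 in BDL against sham (1.62%) and 0 in the rest. Astrocyte markers (7 genes) were also highest in AAV-GFP 1 and AAV-VEGFC 1, at 6750 and 9099 CPM, against 4954 to 6105 elsewhere. So were pericyte and smooth muscle markers (10 genes), at 254 and 227 CPM, against 143 to 212 elsewhere. Neuron and oligodendrocyte markers were not highest in both. Endothelium markers (10 genes found) summed to 269 to 312 CPM in sham, 303 to 404 in BDL, 477 to 517 in AAV-GFP and 498 to 544 in AAV-VEGFC. Of these 10, edgeR called 4 higher in AAV-GFP against BDL (6.19% of all genes called) and 5 higher in AAV-VEGFC against BDL (9.93%). In the other 2 comparisons it called 0. Red cell markers (6 genes) summed to 117 to 158 CPM in sham and 433 to 1319.6 across the ligated groups. T and NK cell markers (14 of 16 found) summed to 7.56 to 15.03 CPM in sham and BDL and 8.32 to 16.6 in the vector groups. Of the CD3 chains that define T cells, Cd3e had 7 to 173 reads and was read in every library, Cd3d had 8 reads in AAV-GFP 1 and 0 in the other 11, and Cd3g had 4 reads in BDL 2 and 0 in the other 11. Of the CD8 chains, Cd8a had 0 to 19 reads and Cd8b had 4 reads each in AAV-GFP 1 and AAV-GFP 2 and 0 elsewhere. The part of these cell types in the class I values was not tested.

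Divided by the microglia sum, B2m was 0.617 ± 0.0768 in sham, 0.550 ± 0.0310 in BDL, 0.625 ± 0.0412 in AAV-GFP and 0.561 ± 0.0266 in AAV-VEGFC (SD, n = 3 each), and the ranges of all groups overlapped. On the same ratio Psmb8 was still highest in AAV-GFP 1 and AAV-VEGFC 1, at 0.00576 and 0.00565 against at most 0.00474 in the other 10 libraries. The other genes that had led in both libraries did not lead in both on this ratio. Psmb9 and Tap1 were highest in AAV-GFP 1, at 0.00873 and 0.0157, but in AAV-VEGFC 1 Tap1 was the lowest of 12 at 0.00868, and Psmb9, at 0.00728, was below sham 2 and BDL 2. Tapbp was lowest in these 2 libraries, and B2m lay mid-range in both. RT1-CE14 per microglia sum was 0.00154 to 0.00198 in AAV-VEGFC, below each of the other 9 libraries. Tapbp per microglia sum was 0.0197 to 0.0257 in the 6 vector libraries, below the 0.0281 to 0.0333 of the 6 sham and BDL libraries. These ratios are descriptions with no test.

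**Figure D5:**
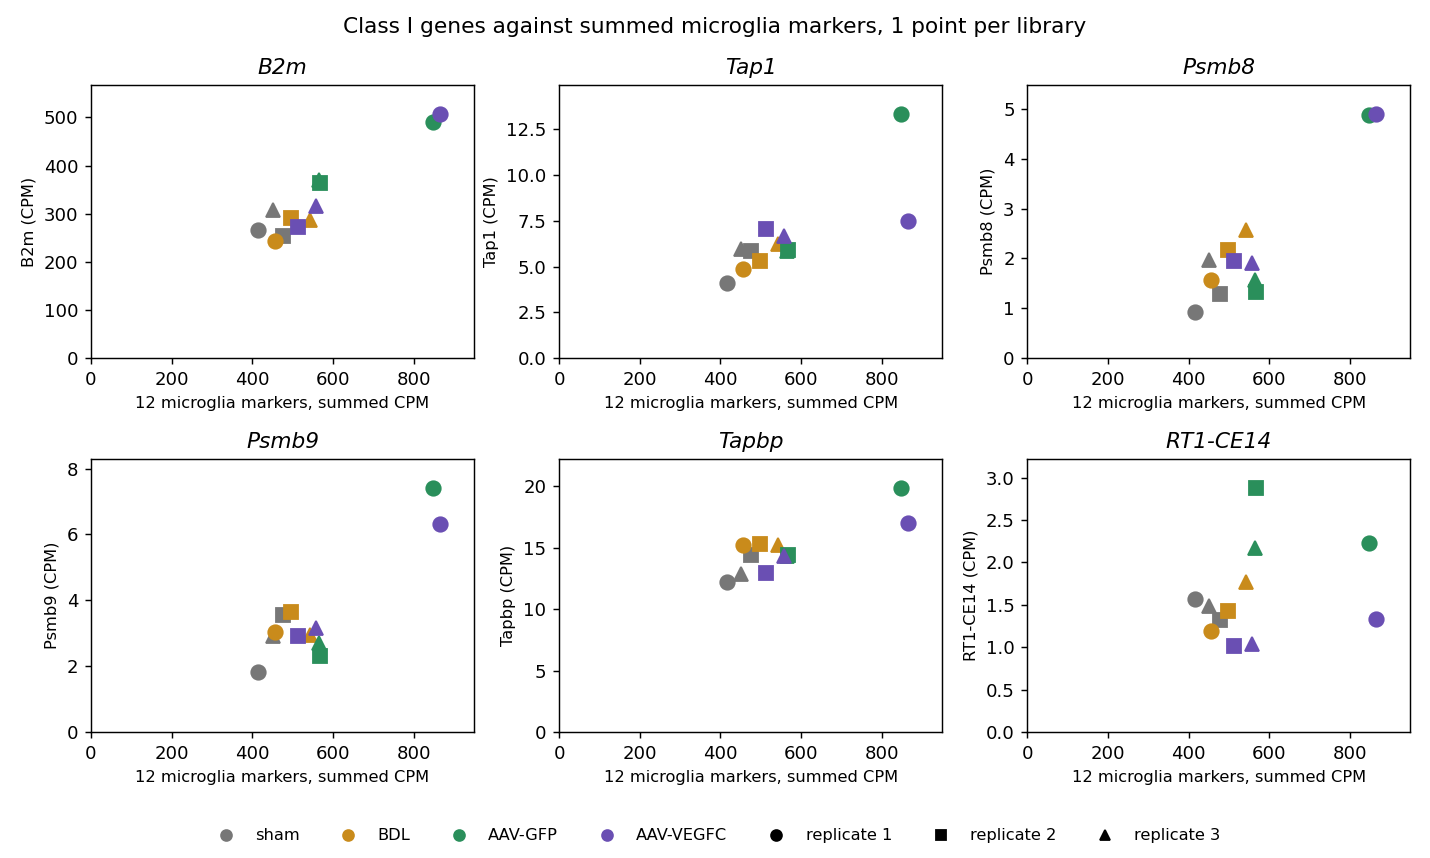
Level of the class I genes other than Tap2 against the summed level of 12 microglia markers, both in CPM, in 12 libraries coloured by group. For Tap2, not shown, AAV-GFP 1 ranked 11 of 12 and AAV-VEGFC 1 ranked 3, from the highest down. AAV-GFP 1 and AAV-VEGFC 1 lie far to the right, at 848 and 866 CPM of microglia markers.

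The mean of the 7 genes, each scaled over the 12 libraries, was set against 11539 other genes with a mean of at least 1 CPM. The 8 most alike by Pearson correlation of log2 CPM over the 12 libraries were Rac2 (0.97), Cd53 (0.96), Csf1r (0.96), C1qa (0.95), Lyn (0.95), C1qb (0.94), Ptpn6 (0.94) and Tmem176b (0.94). Csf1r, C1qa and C1qb belong to the microglia list: Csf1r encodes the receptor that microglia need for survival, and C1qa and C1qb encode chains of the complement starter C1q. Rac2, Cd53, Lyn and Ptpn6 are known from blood and immune cells. Over the 10 libraries without AAV-GFP 1 and AAV-VEGFC 1 the 8 correlations were 0.69 to 0.96, with Cd53 the highest. The mean is not a pattern shared by all 7 genes. Pairs among B2m, Tap1, Tapbp, Psmb8 and Psmb9 had correlations of 0.69 to 0.90, and -0.20 to 0.64 over those 10 libraries. Over the 12 libraries Tap2 had -0.31 to 0.09 with the other genes. RT1-CE14 had 0.02 with Psmb8, -0.02 with Psmb9 and 0.47 with B2m. All points share the libraries' depth and composition, and the correlations are given with no test.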

How the data were processed

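RNA was measured in 12 libraries, prepared with a TruSeq kit per the labels' protocols. The authors deposited raw counts per gene, as whole numbers in 1 table of 12 libraries. The submitters' processing notes name FastQC, Trimmomatic 0.36, HISAT2, featureCounts and the rn6 build; the sources used here do not give their settings, the annotation or the use of strand. The 11 single-library files equalled the table.

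Counts were tested with edgeR 4.0.16 in R 4.3.3 (quasi-likelihood test, TMM scaling, filterByExpr, 1 mean per group over 12 libraries). P-values were adjusted by the Benjamini-Hochberg method over 12850 genes, with calls made at an adjusted p under 0.05. The SE is the size of the log2 fold change divided by the square root of its F value. CPM used TMM-scaled totals, and correlations used log2 CPM with a prior count of 2. The steps were tested on simulated data. Alternatives used DESeq2 1.42.0 and limma 3.58.1 (voom with quality weights), other filters, scalings and sets of libraries, and a replicate block. The block stayed an alternative: of 18 pairs of same-numbered libraries, 0 had deviations correlated above 0.1. Nothing in the labels says whether libraries of a group came from separate animals, so p-values measure only the spread between these samples, which may be technical.

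The 7 genes, the lists and the motifs were chosen with earlier results of these data known. All 7 genes are named; of each list, the 3 genes with the smallest p in AAV-GFP against BDL and in BDL against sham could be named, and every called gene of the lists of class I pathway genes and heavy chain rows. Cd74, Ttr, Slc17a7, Cd3d, Cd3e, Cd3g, Cd8a, Cd8b and the genes shown only in figures were picked after their values were seen. Promoter sequences are from RefSeq, assembly GRCr8; the counts use rn6, so coordinates are given only for the sequences shown. The values of 1 gene of the lists are not reported here; it is counted in the list totals.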

Additional observations from a re-analysis of the deposited data

How the results depend on the processing

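Of 392 values of the 7 genes under alternatives (28 results), 337 kept their sign and their side of the threshold, 9 became called, 0 lost a call and 46 turned in sign. None of the 46 was called, with a lowest adjusted p of 0.274 (edgeR, DESeq2 or limma). The 3 libraries sham 2, AAV-GFP 1 and AAV-VEGFC 1 were left out together by a choice made after seeing the data. Of the 7 genes, 2 were called in AAV-GFP against BDL without these 3 libraries, 2 by DESeq2 and 2 by limma voom (B2m and RT1-CE14 each time). With the compared groups alone it was 1 (B2m), and at an adjusted p under 0.1 it was 1 (RT1-CE14). In AAV-VEGFC against AAV-GFP it was 1 without the 3 libraries and 1 by DESeq2 (RT1-CE14). Leaving out 1 library at a time called 0 of 7 in each comparison.

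Over all genes, BDL against sham called 14, and 332 with the compared groups alone, 209 without the 3 libraries, 108 by DESeq2, 347 by limma voom and 23 at an adjusted p under 0.1. AAV-GFP against BDL called 795, and in the same order 2023, 3646, 1485, 4687 and 1302. AAV-VEGFC against BDL called 1276, and in the same order 330, 3123, 2347, 2488 and 2353. AAV-VEGFC against AAV-GFP called 1, and 0 with the compared groups alone, 1193 without the 3 libraries and 10 by DESeq2. Leaving out 1 library gave 12 to 17, 386 to 859, 586 to 2284 and 0 to 22 genes in these 4 comparisons. The lowest counts of AAV-GFP and AAV-VEGFC against BDL came without BDL 1, and the highest without AAV-GFP 1 and AAV-VEGFC 1. AAV-VEGFC against AAV-GFP reached 22 without AAV-GFP 1 and 9 without AAV-VEGFC 1. The cause of these differences was not tested.

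With the replicate number as a block, for which the pairing check gave no ground, the 4 comparisons called 12, 550, 905 and 0 genes and 0 of the 7. It turned B2m in BDL against sham to 0.00406 and Psmb9 in AAV-VEGFC against AAV-GFP to 0.03661 on the log2 scale.

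Other signs that turned, on the log2 scale, were these. In BDL against sham RT1-CE14 was -2.641e-05 with the groups alone, -0.059 without the 3 libraries and -0.016 by limma voom. In AAV-GFP against BDL, without the 3 libraries and by limma voom, Tapbp was -0.090 and -0.056, Psmb8 -0.54 and -0.36, and Psmb9 -0.36 and -0.21, while Tap2 was 0.076 by limma voom. In AAV-VEGFC against AAV-GFP, Tap1 was 0.23 and 0.16 and Psmb9 0.28 and 0.16. In AAV-VEGFC against BDL, Psmb8 was -0.12 and -0.054 and Psmb9 -0.074 and -0.043.

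With 1 library left out, BDL against sham ran from -0.063 to 0.079 for B2m, -0.11 to 0.13 for Tap1, -0.72 to 0.12 for Tap2, -0.016 to 0.44 for Psmb9 and -0.16 to 0.13 for RT1-CE14. AAV-GFP against BDL ran from -0.61 to 0.23 for Tap2, -0.090 to 0.17 for Tapbp, -0.54 to 0.61 for Psmb8 and -0.36 to 0.66 for Psmb9. AAV-VEGFC against AAV-GFP ran from -0.47 to 0.0076 for B2m, -0.44 to 0.27 for Tap1, -0.25 to 0.033 for Tapbp, -0.42 to 0.9998 for Psmb8 and -0.45 to 0.71 for Psmb9. AAV-VEGFC against BDL ran from -0.031 to 0.80 for Tap2, -0.16 to 0.040 for Tapbp, -0.12 to 0.70 for Psmb8 and -0.075 to 0.56 for Psmb9. With 3 libraries per group the intervals of Psmb8 and Psmb9 are wide, and differences within them could not be detected.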
